A study of Mus musculus with 33 samples.

Results

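The Zfp genes are the mouse genes whose symbol is Zfp followed by a number. Of 26621 gene symbols in the RNA-seq count table, 343 had that form once Zfp36, whose fingers are of another type, was set aside. Of those, 244 reached a summed count of at least 500 over the 18 RNA-seq libraries, and these 244 genes are described here. The sum was 503 for Zfp446, 507 for Zfp93 and 513 for Zfp963, just inside that limit, and 497 for Zfp939, 480 for Zfp316 and 469 for Zfp108, just outside it. All 244 passed the filter on low counts in each of the assays, and since they were chosen by name and summed RNA-seq count, that sum is not a result.

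Most Zfp genes encode C2H2 zinc finger proteins, in which each finger folds around a zinc ion held by a pair of cysteines and a pair of histidines, and rows of fingers read DNA base by base. Many also carry a KRAB domain, which recruits the corepressor TRIM28 and, through it, the histone methyltransferase SETDB1, and so silences retrotransposons and imprinted genes. The genes lie in tandem clusters that grew by duplication, and transcripts of many transcription regulators are known to be short-lived. The rule goes by name and count, not by protein domain. Of the 244 symbols, 233 are current RefSeq symbols and 11 are older ones. Zfp191 is now Zfp24, Zfp828 is now Champ1, and Zfp238, Zfp295, Zfp161, Zfp187 and Zfp192 now carry Zbtb, Zscan or Zkscan names. Zfp259 is now Zpr1, whose fingers are of the C4 type, so the C2H2 label did not hold for that gene.

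The RNA came from hippocampal neural stem cells of mice at postnatal day 0.5, expanded in medium with FGF and EGF. RNA-seq was done on cells labelled Nestin-cKO and Nestin-WT for Ythdf2, a conditional knockout under Nestin, which encodes an intermediate filament of neural progenitors, against wild type. Both genotypes were sampled at 0, 2 and 4 h of 5 µM actinomycin D, which blocks transcription, with 3 libraries for each genotype and hour. In untreated WT cells, RNA was pulled down with an antibody to m6A beside an input (3 libraries each), and RNA bound to the m6A reader YTHDF2 was pulled down beside an IgG pull-down and an input (3 libraries each). YTHDF2 recruits deadenylases to m6A-carrying transcripts, and a transcription block lets the loss of existing RNA be followed. The labels do not say how many animals were used, whether cells were pooled, or whether libraries of a group came from separate cultures, so p-values measure the spread between these libraries.

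An RNA-seq library held between 10257329 and 21353383 counted reads, one of the m6A series 12892222 to 28334300, and one of the YTHDF2 assay 8419106 to 23097887. Ythdf2 itself went against the genotype label. It had 3117, 1035 and 736 CPM (counts scaled to library size) in the libraries labelled cKO at 0 h, against 219, 253 and 258 CPM in WT libraries (log2 2.74 ± 0.37, SE, adjusted p = 2.7e-04). The samples are therefore called the libraries labelled cKO throughout, and directions drawn from that label carry this doubt. Markers of other cells also moved with the label at 0 h. Of 10 fibroblast and meningeal markers tested, 6 were higher in the libraries labelled cKO, and the 11 listed summed to 33.5 to 92.9 CPM there, against 14.1 to 19.8 CPM in WT libraries. Of 9 oligodendrocyte lineage markers tested, 5 were lower, with sums of 91.9 to 109 CPM in the libraries labelled cKO, against 309.6 to 482 CPM in WT libraries. The 12 neural stem cell markers, which define the labelled cell type, summed to 9121 to 12225 CPM in the libraries labelled cKO, against 14227 to 16522 CPM in WT libraries, with 1 higher and 4 lower of 11 tested. Of 8 astrocyte markers, 4 were lower, and of 8 neuron markers tested, 3 were lower and 1 higher. Microglial and endothelial markers were near 0 in both, at no more than 3.90 CPM and 4.21 CPM in sum at 0 h. The part of these differences in the results on the label was not tested.

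Per transcript length, the Zfp genes were expressed at widely different levels. In WT libraries at 0 h their mean levels, in the authors' TPM (length-scaled transcript levels), ran from 0.815 to 326, with a median of 11.1 TPM over the 244 genes, against 8.34 TPM over all genes tested. Above 50 TPM stood 25 of the 244 members, and 54 were below 5 TPM. The members had to reach a summed count of 500 in the RNA-seq libraries, which the other genes tested did not. That limit can raise the members' median, so these medians are not a like comparison. Zfp207, which binds spindle microtubules and BUB3 in mitosis, led with 326 ± 13.5 TPM (SD, n = 3). Zfp191, needed for myelination by oligodendrocytes, had 259 ± 8.51 TPM, and Zfp422 had 201 ± 10.3 TPM. Zfp266 and Zfp330 followed with 181 ± 5.43 TPM and 174 ± 9.0 TPM, which do not differ beyond their spread. At the other end, Zfp609, a regulator of neuron migration in the cortex, had 0.815 ± 0.129 TPM.

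The members sat close together in the genome. Chromosome 7 held 50 of them, chromosome 17 held 34 and chromosome 13 held 24. With neighbours at most 200 kb apart, 92 members lay in runs of 3 or more, 36 in pairs and 116 alone (RefSeq coordinates, GRCm38.p6). The longest run had 15 members between 29768552 and 30169775 on chromosome 7, from Zfp84 to Zfp146. The next had 12 members between 67038594 and 67827000 on chromosome 13, from Zfp712 to Zfp273. Neighbours in a run can be related copies, which was not tested here. How reads shared between copies were counted is not given in the sources used here. Values of single genes in a run are thus less certain than those of genes that lie alone. Reads of overlapping antisense genes cannot be told apart either, since the labels give no stranded counting.

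Promoters of some members shared a short stretch of sequence. RefSeq windows from 250 bases before to 50 bases after the gene start were matched for 199 members (253 windows). Of all words of 11 bases, on either strand, ACTACATTTCC was in the most member windows, and letting its seventh base vary added the most windows. The word ACTACANTTCC was in 39 of these 253 windows (15.4%) and in 334 of all 32851 windows of that length (1.02%). ACTACAATTCC is the core of the site known for Zfp143, an activator at promoters that is itself a member. With A at the variable base the word was in 3.56% of member windows, against 0.286% of all windows, and with T, as ACTACATTTCC, in 9.88%, against 0.536%. The words were picked after a scan of the members' own promoters, so these shares are a description, and a match is not a binding site. The word was in 10 of the 15 genes of the longest run, of which 14 had a window, in 9 of the 12 on chromosome 13 (10 with a window), and in none of the 10 in the run between 21383707 and 21994366 on chromosome 17 (9 with a window). GAGTGAC was in 12.6% of member windows, against 4.38% of all windows, and CACTTCCG, a form of the ETS motif, in 13.8%, against 3.44%. Of common promoter words, CCAAT was in 45.8% of member windows, against 37.4%, GGGCGG in 44.3%, against 35.7%, and TATAAA in 8.70%, against 13.6%. Member windows had a median of 15 CpG and all windows 7, at a GC content of 54.7% in member windows, against 52.7%. The members had to reach the limit on RNA-seq counts, which was not asked of the genes of all windows. These shares and medians are thus not a like comparison.

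The stretches below are from members named for their values in the following paragraphs and from Zfp93, which has the word with A. Each is read 5′ to 3′ on the strand that carries the word, which is in capitals, with 15 bases either side. They are shown because the letters after the word are alike too: over all 38 sites the first is c in 37, with g in Zfp94, and the first 3 are cag in 21 and cac in 12.
Zfp60, chr7:27731329-27731369, plus strand: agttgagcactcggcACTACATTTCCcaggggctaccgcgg
Zfp790, chr7:29815954-29815994, minus strand: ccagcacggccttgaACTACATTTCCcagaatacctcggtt
Zfp383, chr7:29908461-29908501, plus strand: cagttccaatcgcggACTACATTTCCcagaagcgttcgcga
Zfp189, chr4:49521140-49521180, minus strand: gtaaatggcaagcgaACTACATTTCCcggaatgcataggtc
Zfp334, chr2:165388351-165388391, plus strand: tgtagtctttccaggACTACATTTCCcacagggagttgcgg
Zfp273, chr13:67813735-67813775, minus strand: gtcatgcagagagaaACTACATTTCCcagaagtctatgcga
Zfp692, chr11:58307006-58307046, plus strand: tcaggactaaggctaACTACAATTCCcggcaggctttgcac
Zfp93, chr7:24270332-24270372, minus strand: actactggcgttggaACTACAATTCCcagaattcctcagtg

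The whole window of Zfp60, on the plus strand of chr7:27731159-27731458, shows where the word sits, with its centre 60 bases before the gene start.
Zfp60: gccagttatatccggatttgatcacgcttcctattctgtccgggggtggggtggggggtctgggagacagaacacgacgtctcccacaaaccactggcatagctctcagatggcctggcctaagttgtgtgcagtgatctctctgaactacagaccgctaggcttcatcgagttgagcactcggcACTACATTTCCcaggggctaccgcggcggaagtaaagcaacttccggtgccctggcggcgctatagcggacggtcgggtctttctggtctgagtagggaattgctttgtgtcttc
Over the 38 members with the word, its centre lay between 219 bases before and 4 bases after the start, with a median of 46.5 bases before it. The variable base was T in 25 sites, A in 8 and C in 5.

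Before actinomycin D, the Zfp genes as a group were lower in the libraries labelled cKO. They summed to 6620, 6237 and 5252 CPM there, against 10609, 10262 and 10794 CPM in WT libraries, with no overlap between the groups. By edgeR's quasi-likelihood test with Benjamini-Hochberg adjustment over all 14029 genes tested, 96 of the 244 were lower (39.3%) and 1 was higher, against 9.89% of all genes called lower and 7.71% called higher. The median log2 difference of the members was -0.75, against -0.01 over all genes tested. It was negative in 214 of the 244, against 7056 of all 14029 genes. In 159 members (65.2%) every library labelled cKO lay below every WT library, which held for 24.0% of all genes. The count of lower members was 63 without WT replicate 1 at 0 h and 55 without WT replicate 3 at 0 h. When the libraries were scaled to ribosomal protein genes, 126 members were lower and none higher, with 3.85% of all genes higher and 16.2% lower. A limma model of log2(TPM + 1) called 149 lower and 2 higher, with 17.3% and 7.29% of all genes. Leaving out all libraries of 1 replicate number and genotype, an alternative chosen after seeing the data, gave 21 to 39 lower members for the WT numbers and 61 for cKO replicate 2. In bulk RNA, fewer cells of a type and less RNA per cell cannot be told apart.

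**Figure D1:**
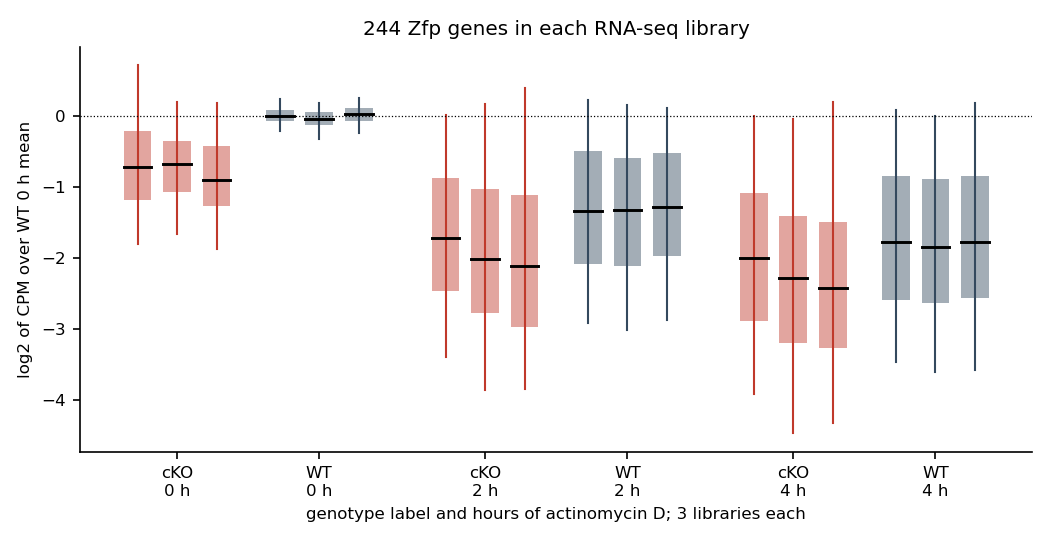
Spread of the 244 Zfp genes in each RNA-seq library, as log2 of CPM over the WT mean at 0 h (pseudocount 0.5); bars run over the middle 50% of the genes, lines from the 5th to the 95th percentile and black marks are medians. The medians at 0 h were -0.72, -0.68 and -0.91 in the libraries labelled cKO and 0.00, -0.05 and 0.03 in WT libraries, and all libraries at 2 and 4 h lay lower.

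Zfp40 gave the smallest p-value among the genes that were lower at 0 h. It lies on chromosome 17 from 23173869 to 23193284 and had 30.3, 26.1 and 31.2 CPM in the libraries labelled cKO, against 84.0, 78.0 and 76.8 CPM in WT libraries (log2 difference -1.45 ± 0.16, SE, adjusted p = 4.6e-05). The groups did not overlap. Zfp60, whose promoter is printed above, had 30.4, 48.9 and 56.5 CPM in the libraries labelled cKO, against 138, 164 and 149 CPM in WT libraries (-1.73 ± 0.24, adjusted p = 3.2e-04). Zfp667, Zfp945, Zfp938 and Zfp644, a partner of the G9a histone methyltransferase, fell by 1.47, 1.27, 1.11 and 1.12 on the log2 scale, with adjusted p-values of 3.9e-04 to 6.3e-04. These 6 genes, which were picked by p-value, were each apart in all libraries, as were 65.2% of members and 24.0% of all genes in the same direction.

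**Figure D2:**
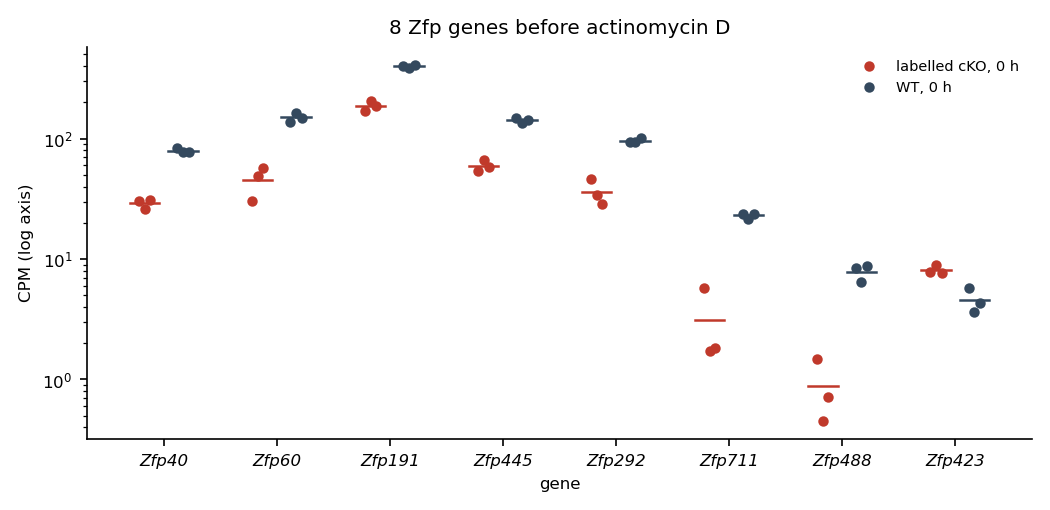
CPM on a log axis of 8 Zfp genes in the libraries labelled cKO (left of each pair) and the WT libraries at 0 h; points are libraries and lines are means. Zfp711 and Zfp488 have the widest gaps, and Zfp423 is the gene that was higher in the libraries labelled cKO. Zfp488 met the count limit through its WT libraries.

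Members with known roles in the nervous system moved in both directions at 0 h. Zfp711, an X-linked intellectual disability gene, had 5.71, 1.73 and 1.83 CPM in the libraries labelled cKO, against 23.7, 21.7 and 23.8 CPM in WT libraries (log2 difference -2.91 ± 0.44, adjusted p = 6.3e-04). Zfp488, which works with OLIG2 in oligodendrocyte differentiation, had 1.49, 0.45 and 0.717 CPM, against 8.43, 6.40 and 8.77 CPM in WT libraries (-3.15 ± 0.67, adjusted p = 0.00577). It moved the same way as the oligodendrocyte lineage markers given above. Most of its RNA-seq reads were in WT libraries, so it met the count limit through the group where it was high. Zfp292, linked to intellectual disability, was lower by -1.40 ± 0.26 (adjusted p = 0.00264). Zfp462, a regulator of neurodevelopment, was lower by -1.38 ± 0.38 (adjusted p = 0.0227), a call that ended when any of 5 libraries at 0 h was left out. Zfp191 was lower by -1.10 ± 0.22 (adjusted p = 0.00420). Zfp423, which acts in cerebellar development, was the 1 member called higher, with 7.78, 8.93 and 7.65 CPM in the libraries labelled cKO, against 5.73, 3.62 and 4.33 CPM in WT libraries (0.83 ± 0.26, adjusted p = 0.0374). That call also ended without any of 5 libraries at 0 h and under ribosomal protein scaling. Zfp335 (-0.17 ± 0.27) and Zfp521 (-0.44 ± 0.32), both regulators of neural progenitors, did not pass the test, and neither did Zfp365 (-0.21 ± 0.18).

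Among the imprinting and retrovirus regulators, Zfp445, which protects methylation of imprinted loci with Zfp57, had 53.4, 67.0 and 58.1 CPM in the libraries labelled cKO at 0 h, against 149, 134 and 143 CPM in WT libraries (-1.26 ± 0.24, adjusted p = 0.00341). Zfp57 itself (-0.56 ± 0.33, adjusted p = 0.240), Zfp809, which silences retroviruses in embryonic stem cells (-0.36 ± 0.24, adjusted p = 0.297), and Zfp568, a repressor of a placental Igf2 transcript (-1.20 ± 0.44, adjusted p = 0.0674), did not pass at 0 h. The proteins that KRAB zinc fingers work through were counted in the same way. Of 38 genes of the repression machinery tested, 6 (15.8%) were lower and none higher, with a median of -0.36, against 9.89% of all genes lower and 7.71% higher. The smallest p-values were those of Nr2c2, an orphan nuclear receptor (-1.36 ± 0.26, adjusted p = 0.00341), the SETDB1 partner Atf7ip (-0.99 ± 0.27, adjusted p = 0.0205), and the chromatin remodellers Atrx (-1.14 ± 0.31, adjusted p = 0.0215) and Smarcad1 (-1.10 ± 0.31, adjusted p = 0.0234). Trim28 gave -0.48 (adjusted p = 0.123) and Setdb1 -0.36 (adjusted p = 0.299). Of 32 genes with Zbtb, Zkscan or Zscan names, the other large zinc finger families, 4 were lower, with a median of -0.30. The difference between these lists was not tested.

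The genotype labels were also compared after actinomycin D. At 2 h, 65 members were lower and none higher in the libraries labelled cKO, with a median of -0.57, against 8.54% of all genes lower and 8.52% higher. At 4 h, 60 were lower and 5 higher, with a median of -0.43, against 9.11% of all genes lower and 11% higher. The 2 h count ranged from 28 to 35 without cKO replicate 2 or 3 or any WT replicate at 2 h, and the 4 h count was 26 without cKO replicate 3 at 4 h. Without all libraries of cKO replicate 1 the counts were 114 at 2 h and 98 at 4 h, and without cKO replicate 2 or any 1 WT number they were 21 to 25 and 19 to 27. With the libraries of each hour fitted alone they were 41 and 39. With library size alone as the scale, 52 members were lower and 3 higher at 2 h (all genes 6.59% and 13.7%), and 48 lower and 9 higher at 4 h (all genes 6.80% and 17.8%). Under ribosomal protein scaling, 92 were lower and 0 higher at 2 h (all genes 13.7% and 4.20%), and 73 lower and 3 higher at 4 h (all genes 13.5% and 5.27%). Whether the difference changed with the hour is the comparison of slopes below. Zfp40 led at 2 h, with 16.6, 12.9 and 12.8 CPM in the libraries labelled cKO, against 46.5, 44.7 and 47.4 CPM in WT libraries (-1.71 ± 0.17, adjusted p = 8.6e-06). Zfp760, Zfp60, Zfp329, Zfp157 and Zfp410 followed, with log2 differences of -1.49, -1.47, -1.26, -1.45 and -1.11 (adjusted p of 7.8e-04 to 0.00144). Markers moved with the label at these hours too. In the libraries labelled cKO, 5 and 7 of 8 astrocyte markers and 6 and 6 of 9 oligodendrocyte lineage markers were lower at 2 and 4 h, and 7 and 8 of 10 fibroblast and meningeal markers were higher. The stem cell markers summed to 10517 to 14970 CPM at 4 h in the libraries labelled cKO, against 25463 to 28597 CPM in WT libraries. Of the 96 members lower at 0 h, 49 (51.0%) were also lower at 2 h, where they made up 75.4% of the lower ones. At all 3 hours, 32 members were lower (13.1% of the 244), against 4.16% of all genes. They include Zfp40, Zfp60, Zfp445, Zfp292, Zfp711, Zfp719 and Zfp763. The call of Zfp711 ended at 2 h without any of 5 single libraries and at 4 h without either of 2. The hours are separate libraries, and libraries with the same number shared deviations, so the hours are not independent repeats.

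At 4 h the lower members were led by Zfp40, which had 15.2, 11.1 and 13.0 CPM in the libraries labelled cKO, against 35.8, 34.4 and 37.9 CPM in WT libraries (-1.46 ± 0.17, adjusted p = 3.8e-05). Zfp329, Zfp563, Zfp617 and Zfp81 followed, with log2 differences of -1.43, -1.77, -1.63 and -2.07 (adjusted p of 4.2e-04 to 6.6e-04). Zfp57, which holds imprints, had 14.9, 6.78 and 4.45 CPM in the libraries labelled cKO, against 38.7, 32.7 and 45.2 CPM in WT libraries (-2.15 ± 0.34, adjusted p = 7.3e-04). Its groups overlapped at 0 h and stood apart at 4 h, as did those of 35.2% of members and 18.2% of all genes in the same direction at 4 h. The 5 higher members at 4 h were Zfp828, Zfp91, Zfp259, Zfp444 and Zfp703. Zfp828, which attaches chromosomes to the spindle, had 12.1, 7.93 and 11.1 CPM in the libraries labelled cKO, against 4.02, 4.30 and 3.30 CPM in WT libraries (1.43 ± 0.25, adjusted p = 0.00152). Zfp91, a ubiquitin ligase of the NF-kappaB pathway, had 29.9, 25.1 and 20.0 CPM, against 11.4, 10.9 and 11.4 CPM in WT libraries (1.15 ± 0.25, adjusted p = 0.00487). Zfp259, which binds the SMN protein, was higher by 0.88 ± 0.21 (adjusted p = 0.0100), a call that ended without WT replicate 1 at 4 h. Zfp444 (1.26 ± 0.38, adjusted p = 0.0290) lost its call without any of 5 libraries, and Zfp703, a transcriptional corepressor (1.93 ± 0.63, adjusted p = 0.0406), without any of 9.

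Transcripts of the Zfp genes were lost quickly after transcription was blocked, in both genotypes. The CPM are relative to all RNA left in the cells, so a log2 change of 0 means a loss as fast as that of the middle gene. In the libraries labelled cKO, the members summed to 3628, 2898 and 2370 CPM at 4 h, against 6620, 6237 and 5252 CPM at 0 h. In WT libraries, they summed to 4565, 4190 and 4510 CPM at 4 h, against 10609, 10262 and 10794 CPM at 0 h. In the libraries labelled cKO, 174 of 244 members (71.3%) were lower at 4 h and none was higher, with a median log2 change of -1.50, against 18% of all genes lower and 12.1% higher. In WT libraries, 192 members (78.7%) were lower and 1 was higher, with a median of -1.92, against 24.2% of all genes lower and 15.6% higher. A call with a loss of more than 2-fold was reached by 160 members in the libraries labelled cKO and 177 in WT libraries, against 14.7% and 19.7% of all genes. At 2 h the medians were already -1.12 in the libraries labelled cKO and -1.37 in WT libraries, with 138 members lower and 0 higher (all genes 9.85% and 2.21%) and 156 lower and 0 higher (all genes 13.7% and 3.63%). The 2 h count in the libraries labelled cKO was 72 when those libraries were fitted alone and 85 without all cKO replicate 2 libraries. The 2 h count in WT libraries was 97 without all libraries of WT replicate 1 or of WT replicate 3. Libraries with the same number deviated together over the hours. With that number as a block, 184 members were lower and 3 higher at 4 h in the libraries labelled cKO (all genes 23.1% and 21.1%). In WT libraries 201 were lower and 2 higher (all genes 29.1% and 23.8%). At 2 h, the block gave 167 and 175 lower members, with 15.8% and 20.2% of all genes lower and 9.79% and 13.6% higher.

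The scale moved these counts without turning them. With library size alone, 186 members were lower at 4 h in the libraries labelled cKO and 210 in WT libraries, with 22.6% and 31.4% of all genes lower and 3.67% and 4.98% higher. Under ribosomal protein scaling the numbers were 214 and 226 members, with 38.9% and 42.5% of all genes lower and 0.228% and 0.321% higher. The TPM model gave 189 and 219 members, with 27.4% and 36.9% of all genes lower and 1.98% and 2.44% higher. At 2 h, ribosomal protein scaling gave 178 and 192 lower members, with 20.6% and 24.5% of all genes lower and 0.249% and 0.207% higher. At 4 h the median of the members stayed below that of all genes by 1.10 to 1.60 in the libraries labelled cKO and by 1.52 to 1.93 in WT libraries, over these and the other scales and tools run. At 4 h, 163 members were lower in both genotypes, which is 93.7% of the 174 and 84.9% of the 192. That held for 15.8% of all genes. The Zbtb, Zkscan and Zscan genes gave like values, with 21 of 32 lower at 4 h in the libraries labelled cKO (median -1.28) and 23 of 32 in WT libraries (median -1.94).

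**Figure D3:**
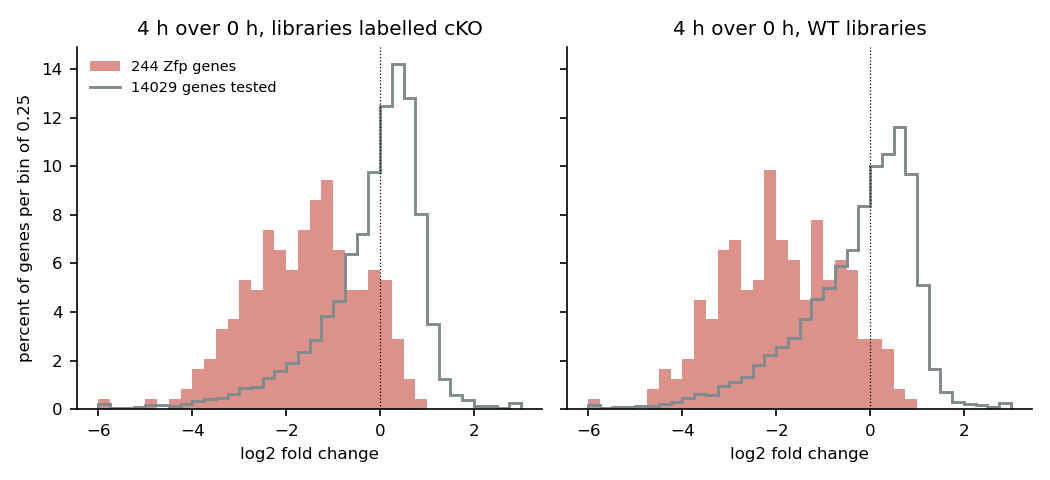
Percent of genes in each bin of 0.25 of the log2 change at 4 h over 0 h of actinomycin D, for the libraries labelled cKO and the WT libraries; the filled area is the 244 Zfp genes, the line is the 14029 genes tested, and the outermost bins hold all values beyond them. The Zfp genes are spread around -1.50 and -1.92, and all genes around 0.08 and 0.00.

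Zfp719 and Zfp639 were among the 6 smallest p-values in both genotypes. Zfp719 had 57.1, 58.6 and 52.9 CPM at 0 h, 8.83, 6.21 and 4.66 CPM at 2 h and 6.07, 4.10 and 6.37 CPM at 4 h in the libraries labelled cKO. In WT libraries it had 117, 122 and 127 CPM at 0 h, 11.6, 12.1 and 11 CPM at 2 h and 8.16, 10.6 and 9.18 CPM at 4 h. Most of its loss was thus complete by 2 h, with log2 changes at 4 h of -3.35 ± 0.23 in the libraries labelled cKO and -3.71 ± 0.23 in WT libraries (adjusted p = 2.3e-08 and 1.2e-08). Zfp639 fell by 2.85 in the libraries labelled cKO and by 2.83 in WT libraries on the log2 scale (adjusted p = 2.3e-08 in both). Zfp189, Zfp281, Zfp763 and Zfp334 completed the 6 in the libraries labelled cKO, with changes of -4.32, -3.46, -3.86 and -3.12 (adjusted p of 2.3e-08 to 2.4e-07). Zfp281, a repressor of Nanog in embryonic stem cells, had 8.81, 6.98 and 7.57 CPM at 4 h, against 118, 81.8 and 58.5 CPM at 0 h in those libraries. In WT libraries Zfp715, Zfp828, Zfp667 and Zfp763 completed the 6, with changes of -3.61, -4.27, -3.14 and -4.03 (adjusted p of 1.2e-08 to 6.0e-08). The steepest loss, picked after its values were seen, was that of Zfp472, with 0.859, 0.128 and 0 CPM at 4 h, against 24.3, 22.5 and 10.2 CPM at 0 h in the libraries labelled cKO, and 0.565, 0.764 and 0.259 CPM at 4 h, against 31.0, 29.1 and 31.6 CPM at 0 h in WT libraries.

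**Figure D4:**
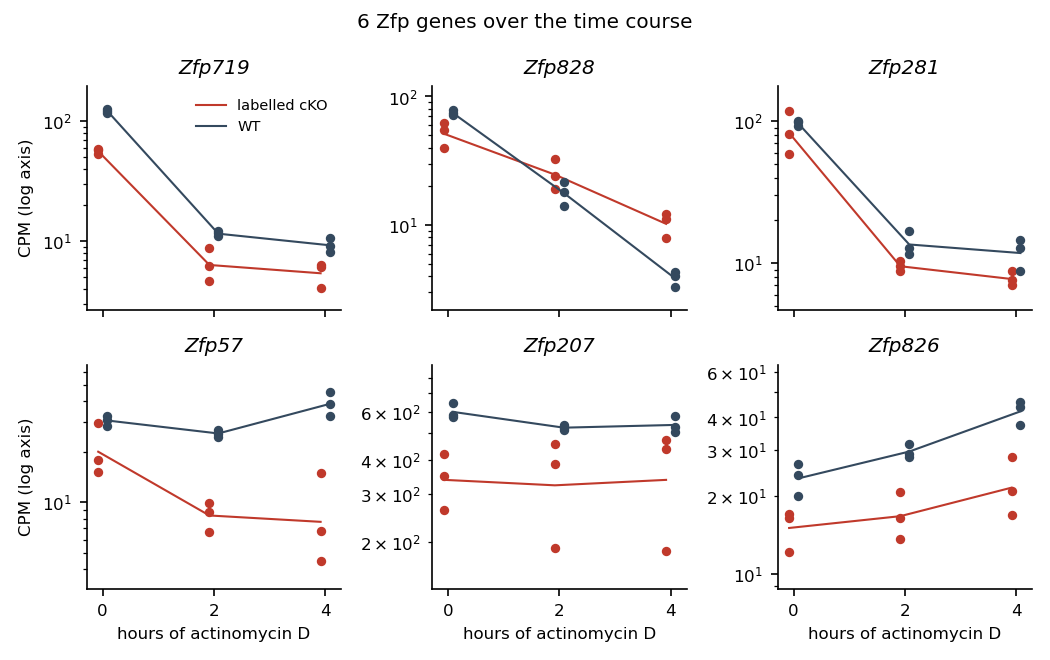
CPM on a log axis of 6 Zfp genes at 0, 2 and 4 h of actinomycin D; points are libraries, lines join the geometric means, red is labelled cKO and dark blue WT. Zfp719 and Zfp281 drop by 2 h, Zfp828 goes on dropping to 4 h, and Zfp207 and Zfp826 had no called loss in either genotype.

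A smaller set had no called loss. At 4 h, 41 members passed the test for a loss in neither genotype, which does not show that they were not lost, among them Zfp207, Zfp106, Zfp326, Zfp335, Zfp365, Zfp423, Zfp521, Zfp598 and Zfp809. In the libraries labelled cKO, Zfp207 had 471, 439.8 and 186 CPM at 4 h, against 350.1, 419 and 263 CPM at 0 h (0.09 ± 0.30, adjusted p = 0.854), with replicate 3 the lowest at both hours. In WT libraries it had 577, 507 and 529 CPM at 4 h, against 582, 574 and 645 CPM at 0 h (-0.16 ± 0.30, adjusted p = 0.710). Zfp106, an RNA-binding protein needed by motor neurons, gave 0.34 ± 0.15 in the libraries labelled cKO and 0.27 ± 0.15 in WT libraries (adjusted p = 0.0977 and 0.162). Zfp826 was the member called higher in WT libraries, with 43.8, 37.4 and 45.9 CPM at 4 h, against 19.9, 26.6 and 24.0 CPM at 0 h (0.85 ± 0.21, adjusted p = 0.00455). That call ended with library size alone, under ribosomal protein scaling and in the TPM model. Zfp57 gave -1.26 ± 0.34 in the libraries labelled cKO (adjusted p = 0.00978) and 0.34 ± 0.33 in WT libraries (adjusted p = 0.438). Its call in the libraries labelled cKO ended without replicate 1 at 0 h and when those libraries were fitted alone.

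Of the 23 members with a known role, 10 were lower at 4 h in the libraries labelled cKO and 13 in WT libraries. They include the transcription activator Zfp143, which fell by 2.80 in the libraries labelled cKO and by 3.14 in WT libraries, the GC-box binder Zfp148 (-1.15 and -1.32), Zfp292 (-2.14 and -2.03), Zfp191 (-1.11 and -2.04) and Zfp568 (-3.72 and -4.61). Of the repression machinery, 9 of 38 (23.7%) were lower and 3 higher in the libraries labelled cKO, at a median of -0.11. In WT libraries 14 (36.8%) were lower and 3 higher (all genes 24.2% and 15.6%), at a median of -0.18. The smallest p-values in both genotypes were those of 2810474O19Rik (-3.82 and -2.44), the chromatin ATPase Morc3 (-2.43 and -2.53) and Ehmt1 (-1.17 and -1.29), the GLP methyltransferase. Mphosph8, of the HUSH complex, fell by 1.33 in the libraries labelled cKO, and Atf7ip fell by 2.04 in WT libraries.

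No difference in the rate of loss between the genotypes passed the test for any member. The rate was a linear slope of log2 level over 0, 2 and 4 h. The loss was not linear, since the members' medians at 2 and 4 h were -1.12 and -1.50 in the libraries labelled cKO and -1.37 and -1.92 in WT libraries. The slope is thus an average over the 4 h, and differences limited to the first 2 h can be missed. Per replicate, the median slope over members was -0.30, -0.39 and -0.37 log2 per hour in the libraries labelled cKO and -0.44, -0.44 and -0.45 log2 per hour in WT libraries, with no overlap. The difference in slope had a median of 0.07 log2 per hour over members, against 0.02 over all genes. It was positive in 169 of 244 members, against 7708 of all 14029 genes. Without cKO replicate 1 at 4 h the median over members was -0.00, against -0.02 over all genes, and without any other single library it was 0.04 to 0.10. None of the 244 was called by edgeR, against 0.00713% of all genes (1 gene). An unadjusted p under 0.05 was found in 38 members, against 1184 of all 14029 genes. DESeq2 called 3 members, and 1 was called with the replicate number as a block, with library size alone and in the TPM model. Of single libraries, leaving out cKO replicate 1 at 2 h or at 4 h gave 1 call. The smallest p was that of Zfp828, with slopes of -0.58 log2 per hour in the libraries labelled cKO and -1.07 in WT libraries (difference 0.48 ± 0.08, adjusted p = 0.0738). Zfp493 (difference 0.54 ± 0.14, adjusted p = 0.195) and Zfp91 (0.37 ± 0.09, adjusted p = 0.195) came next.

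In the m6A pull-down the members were shifted upwards by a small amount. They summed to 13977, 12275 and 13803 CPM in the pull-down, against 11734, 10784 and 11313 CPM in the input. Of 244, 50 were higher in the pull-down (20.5%) and 3 lower, with a median log2 difference of 0.26, against 6.06% of all 14167 genes higher, 14.3% lower and a median of 0.01. A positive value was found in 225 members, against 7220 of all 14167 genes, and the middle 50% of members lay between 0.16 and 0.33. Libraries with the same number deviated together, and with that number as a block 125 members were higher and 4 lower, against 17.2% and 20.7% of all genes. The count was 18 without pull-down replicate 1, 15 without pull-down replicate 3, 32 without input replicate 2 and 16 without input replicate 3. It also depended on the scale. With library size alone 167 were higher and none lower (all genes 25.6% and 9.13%), in the TPM model 221 and none (51.1% and 5.44%), and under ribosomal protein scaling 244 and none (91.1% and 0.508%). On all of these the median of the members lay 0.24 to 0.29 above that of all genes. Across all genes the log2 difference rose with transcript length (Spearman's rho 0.38 over 14163 genes), less so across the members (0.20 over 244), whose median length was 1.25 times that of the middle gene. The part of length was not tested.

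Single members changed by less than 2-fold in the m6A pull-down. Zfp191 had 322, 318 and 318 CPM in the pull-down, against 253, 252 and 240.2 CPM in the input (0.36 ± 0.06, adjusted p = 0.00331). Zfp790, of the longest run, had 75.2, 71.6 and 80.3 CPM, against 58.2, 51.5 and 55.3 CPM in the input (0.46 ± 0.08, adjusted p = 0.00380). Zfp187, Zfp46, Zfp383 and Zfp646 followed with 0.61, 0.55, 0.44 and 0.68 (adjusted p of 0.00639 to 0.00778). The groups of all 6, which were picked by p-value, were apart, as were those of 44.3% of members and 16.1% of all genes in the same direction. The 3 lower members were Zfp277 (-0.46 ± 0.09, adjusted p = 0.00789), Zfp706 (-0.35 ± 0.08, adjusted p = 0.0123) and Zfp330 (-0.28 ± 0.07, adjusted p = 0.0229). Their direction turned in the TPM model and under ribosomal protein scaling, and their calls ended with library size alone. Of the members with a known role, Zfp191, Zfp148, Zfp281, Zfp106 and Zfp521 were called higher. The call of Zfp521 ended without any of 4 libraries, and those of Zfp148, Zfp281 and Zfp106 without 1 each. Zfp57 (0.41 ± 0.14, adjusted p = 0.0714) and Zfp809 (0.29 ± 0.10, adjusted p = 0.0702) did not pass.

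The YTHDF2 pull-down was rich in Zfp transcripts. They summed to 18435, 25006 and 23944 CPM in the YTHDF2 pull-down, against 10634, 11655 and 11993 CPM in the IgG pull-down and 8299, 8150 and 8775 CPM in the input. Against IgG, 143 of 244 (58.6%) were higher and none lower, with a median log2 difference of 0.93, against 14.3% of all 14255 genes higher, 0.330% lower and a median of -0.08. Libraries with the same number deviated together, and with that number as a block 173 were higher and 6 lower over IgG, against 22.0% and 8.90% of all genes. Against input, 194 (79.5%) were higher and 2 lower, with a median of 1.29, against 30.7% of all genes higher and 17.5% lower. With DESeq2's size factors in edgeR, 133 were higher and 3 lower against IgG (all genes 12.3% and 2.29%), and 185 higher and 5 lower against input (all genes 24.9% and 22.5%). The TPM model gave 211 higher and 0 lower against input (all genes 42.0% and 8.65%). The IgG control held some of them too, with 67 higher (27.5%) and 12 lower in IgG over input, against 20.2% of all genes higher and 17.0% lower, and with library size alone 82 higher and 4 lower (all genes 23.8% and 12.9%), or in the TPM model 94 and 0 (all genes 28.4% and 7.13%). These groups follow the sample descriptions and the names of the count columns. The sample titles exchange YTHDF2 and input, and by the titles the same libraries would give 2 members higher and 194 lower over input, and 12 higher and 67 lower over IgG. The directions, ranks and overlaps of the YTHDF2 pull-down below rest on the descriptions, and by the titles the values given here for input would be those of YTHDF2.

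**Figure D5:**
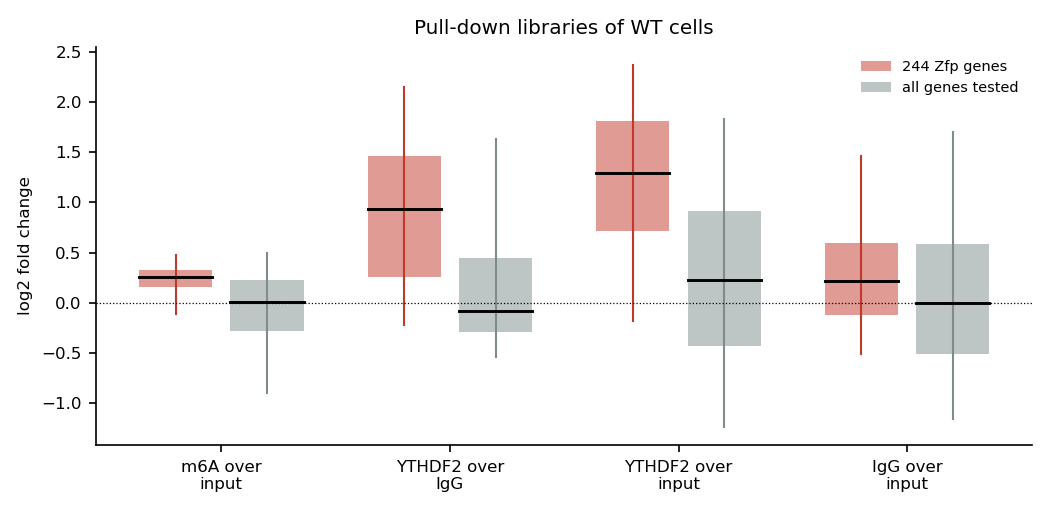
Log2 difference between pull-down and control libraries of WT cells for the 244 Zfp genes (left of each pair) and all genes tested; bars run over the middle 50% of genes, lines from the 5th to the 95th percentile and black marks are medians. The medians of the Zfp genes are 0.26, 0.93, 1.29 and 0.22, against 0.01, -0.08, 0.23 and 0.00 for all genes.

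Zfp273, at the end of the run on chromosome 13 and with the promoter stretch printed above, led the YTHDF2 pull-down. It had 135, 149 and 159.8 CPM in the YTHDF2 pull-down, against 14.9, 15 and 14.9 CPM in IgG and 13.0, 16.0 and 14.4 CPM in input (3.31 ± 0.16 over IgG, adjusted p = 1.6e-06). Zfp41 had 333, 398 and 432 CPM, against 53, 49.0 and 50.5 CPM in IgG (2.93 ± 0.16, adjusted p = 1.9e-06). Zfp87, Zfp790 and Zfp719 followed at 2.70, 2.97 and 2.32 (adjusted p of 1.9e-06 to 3.0e-06). Zfp191 had 399, 483 and 433 CPM, against 106, 109 and 98.0 CPM in IgG (2.07 ± 0.15, adjusted p = 5.3e-06). The groups of these 6, which were picked by p-value, were far apart. Over IgG, 65.6% of members and 20.9% of all genes had groups apart in the same direction. Zfp790 and Zfp191 were also among the 6 leading genes of the m6A pull-down.

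Of the members with a known role, 7 of 23 were higher over IgG, where 58.6% of all members and 14.3% of all genes were. Zfp521 led with 530.5, 747 and 684 CPM in the YTHDF2 pull-down, against 159, 154 and 138 CPM in IgG (2.12 ± 0.17, adjusted p = 9.1e-06). Zfp148 (1.07 ± 0.17, adjusted p = 7.9e-04), Zfp281 (0.90 ± 0.22, adjusted p = 0.0156) and Zfp292 (0.85 ± 0.19, adjusted p = 0.00888) were higher too, and the call of Zfp292 ended in the TPM model. The calls of Zfp281, Zfp488 (1.56 ± 0.47, adjusted p = 0.0457) and Zfp809 (0.68 ± 0.19, adjusted p = 0.0303) each ended without any of 3 to 5 single libraries. Zfp57 and Zfp445 did not pass the test of YTHDF2 over IgG, and were higher in IgG than in input. Zfp57 had 186, 221 and 313 CPM in the YTHDF2 pull-down and 233, 371 and 435 CPM in IgG (-0.53 ± 0.26, adjusted p = 0.220), against 33.2, 44.2 and 47.8 CPM in input, and was 3.06 ± 0.28 higher in IgG than in input (adjusted p = 3.2e-05). Zfp445 had 681, 883 and 898 CPM in the YTHDF2 pull-down and 692, 649 and 749 CPM in IgG, against 229, 186 and 241 CPM in input (0.24 ± 0.17 over IgG, adjusted p = 0.412). Zfp263, Zfp383, Zfp692 and Zfp40 were likewise higher in IgG than in input, by 2.60, 2.09, 2.40 and 1.47. Of the 12 members lower in IgG than in input, Zfp191, Zfp146, Zfp35, Zfp933, Zfp120 and Zfp111 had the smallest p-values, with differences from -0.88 to -0.51. Of the repression machinery, the histone methyltransferase Setdb2 was higher over IgG (0.77 ± 0.22, adjusted p = 0.0315), and the 38 genes tested had a median of -0.31. Of the Zbtb, Zkscan and Zscan genes, 18 of 32 were (median 0.96).

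The calls of the different assays were set beside each other. Of the 143 members higher in the YTHDF2 pull-down over IgG, 128 (89.5%) were lower at 4 h in WT libraries, which is 66.7% of those 192, where 78.7% of all members were lower. Over all genes tested in both, the shares were 48.1% and 28.7%, where 25% were lower. Of the 50 members higher in the m6A pull-down, 39 (78.0%) were higher in YTHDF2 over IgG, 27.3% of the 143, where 58.6% of all members were higher. Over all genes the shares were 49.8% and 21.1%, where 14.8% were higher. Likewise 39 of the 50 (78.0%, and 20.3% of the 192) were lower at 4 h in WT libraries, a share close to the 78.7% of all members, and over all genes the shares were 49.0% and 12.4%. Of the 96 members lower in the libraries labelled cKO at 0 h, 68 (70.8%) were higher in YTHDF2 over IgG, 47.6% of the 143, and over all genes the shares were 19.4% and 13.0%.

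Across members, the log2 change at 4 h in WT libraries and the log2 difference of YTHDF2 over IgG had a Pearson's r of -0.43 and a Spearman's rho of -0.44 (n = 244 genes), against -0.32 and -0.31 over 13336 genes. With YTHDF2 over input in its place, they were -0.30 and -0.26 over members, against -0.41 and -0.45 over all genes, and with m6A over input -0.24 and -0.21, against -0.31 and -0.37 over 13350 genes. The m6A difference and YTHDF2 over IgG had 0.34 and 0.35 over members, against 0.38 and 0.44 over 13637 genes. The difference between the labels at 0 h and YTHDF2 over IgG had -0.32 and -0.32 over members, against -0.01 and -0.02 over 13336 genes, and with m6A in its place -0.21 and -0.06, against -0.12 and -0.15. Genes are not independent replicates, and all points of a comparison share its libraries.

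Members in tandem runs and members alone gave these values side by side. At 4 h over 0 h, the 92 in runs of 3 or more had medians of -1.68 in the libraries labelled cKO and -2.09 in WT libraries, with 78 and 82 called lower, and the 116 alone had -1.34 and -1.87, with 71 and 82 called lower. In the difference between the labels at 0 h the medians were -0.86 in runs, with 46 of 92 lower, and -0.60 alone, with 35 of 116 lower. Over IgG, the YTHDF2 pull-down gave 1.17 in runs, with 68 of 92 higher, and 0.74 alone, with 55 of 116 higher. Of runs with 5 or more members, the one on chromosome 13 had the lowest medians at 4 h, -2.53 in the libraries labelled cKO and -3.04 in WT libraries, with 12 and 11 of 12 lower, and the highest median over IgG, 1.89, with 10 of 12 higher. The longest run, on chromosome 7, had medians of -1.59 and -2.16 at 4 h and of 1.22 over IgG. The run on chromosome 17 from 32765496 to 33110707, which holds Zfp763 and Zfp563, had the lowest median between the labels at 0 h, -1.19, with 6 of 8 lower.

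Members with and without the promoter word were set side by side. At 4 h in WT libraries, 35 of the 38 with ACTACANTTCC (92.1%, median -2.17) and 121 of the 161 without it (75.2%, median -1.79) were lower. In the libraries labelled cKO, 31 of 38 (81.6%, median -1.83) and 113 of 161 (70.2%, median -1.46) were lower. Between the labels at 0 h, 17 of 38 with the word (44.7%) and 64 of 161 without it (39.8%) were lower, and at 4 h 7 of 38 (18.4%) and 47 of 161 (29.2%) were. Over IgG, 27 of 38 (71.1%) and 94 of 161 (58.4%) were higher in the YTHDF2 pull-down, and in m6A 9 of 38 (23.7%) and 30 of 161 (18.6%). Of the 38 with the word, 18 lie on chromosome 7 and 10 on chromosome 13, so the word and the position cannot be told apart here, and no test was made.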

How the data were processed

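Measured were 33 libraries of mouse neural stem cells: 18 of RNA-seq, 6 of the m6A pull-down and its input, and 9 of the YTHDF2 pull-down, IgG and input. The deposited counts are raw read counts per gene symbol, and the deposited TPM are the authors' length-scaled transcript levels. Per the submitters' processing notes, the tools were bcl2fastq 2.17.1.14, Trimmomatic 0.32 and STAR 2.5.2a on GRCm38. Neither the counter nor the annotation is named in the labels or file headers. RNA-seq libraries were made by a SMART-seq2 type method and pull-down libraries by a SMART-seq3 type method, per the labels' protocols, and whether molecular identifiers were counted is not stated, so PCR duplicates may be in the counts.

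Counts were tested with edgeR 4.0.16 (quasi-likelihood F-test, TMM scaling, filterByExpr) in R 4.3.3, with all groups of an assay in 1 fit and Benjamini-Hochberg adjustment over all genes tested, at a threshold of 0.05. Residual degrees of freedom were 12, 4 and 6 for RNA-seq, m6A and YTHDF2, and 14 for the slopes. CPM use the TMM library sizes. Alternatives were DESeq2 1.42.0, limma 3.58.1 on log2(TPM + 1), DESeq2-type size factors in edgeR, library size alone, scaling to ribosomal protein genes, no filter on low counts, the replicate number as a block, the compared libraries alone, other count limits, the sample titles, and each library left out. The fits were tested on simulated data.

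Libraries with the same number deviated together over hours within a genotype (correlations of 0.18 to 0.46), in m6A (0.11 to 0.50) and in the YTHDF2 series (0.41 to 0.70), so these numbers pair libraries. Between genotypes they did not (-0.12 to 0.08).

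The members, gene lists and tests were chosen with earlier results of these data known. The rule for naming took, in each comparison, the 6 called members with the smallest adjusted p in each direction, members with a known role whatever their values (23 of 27 listed), the genes next to the count limit, the 4 repression machinery genes with the smallest p, and Ythdf2. Some results that it took are not reported here. Trim28, Setdb1, Zfp472 and Zfp493 were named outside this rule, after their values were seen. Promoter sequences and coordinates are from RefSeq (GRCm38.p6).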

Additional observations from a re-analysis of the deposited data

How the results depend on the processing

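The direction of the members' median was kept in every alternative run for RNA-seq and m6A, except the slope difference, whose median was -0.00 without cKO replicate 1 at 4 h. By the sample titles, which exchange YTHDF2 and input, the medians were -1.29 for YTHDF2 over input, -0.22 for YTHDF2 over IgG and -0.93 for IgG over input, with 2, 12 and 0 members higher, by construction. Counts of members lower in the libraries labelled cKO moved with single libraries, from 55 to 111 at 0 h, 28 to 94 at 2 h and 26 to 85 at 4 h. Without all libraries of 1 replicate number, an alternative chosen after seeing the data, they were 61 (cKO 2), 27, 39 and 21 (WT 1, 2 and 3) at 0 h, 114, 22, 25, 22 and 21 (cKO 1, cKO 2, WT 1, 2 and 3) at 2 h, and 98, 27, 25, 26 and 19 at 4 h. The TPM model gave 149 at 0 h, and the compared libraries alone 41 at 2 h and 39 at 4 h. Of the changes over time, single libraries left 102 to 146 lower members at 2 h and 159 to 177 at 4 h in the libraries labelled cKO, and 124 to 165 and 170 to 195 in WT libraries. At 2 h in the libraries labelled cKO the count was 72 with the compared libraries alone and 85 without cKO 2, and in WT libraries it was 97 without WT 1 and 97 without WT 3. The slopes gave 0 to 1 calls without single libraries, 1 with library size alone, 1 with the replicate block, 3 by DESeq2, 1 in the TPM model and 2 without all cKO 1 libraries. In m6A, single libraries left 15 to 70 higher members, library size alone gave 167, the replicate block 125, ribosomal protein scaling 244 and the TPM model 221. In the YTHDF2 series single libraries left 181 to 201 over input, 126 to 150 over IgG, and 48 to 73 for IgG over input. A count limit of 2000 leaves 139 members, of which 90 and 108 were lower in WT libraries at 2 and 4 h, 84 and 101 in the libraries labelled cKO, and 112, 87 and 38 higher in YTHDF2 over input, YTHDF2 over IgG and IgG over input. With the replicate block, the small counts in the other direction also moved by over 1.5 times: higher members at 2 and 4 h were 2 and 3 in the libraries labelled cKO and at 4 h 2 in WT libraries, and lower members were 6 in YTHDF2 over input, 6 in YTHDF2 over IgG and 19 in IgG over input. Other settings moved such small counts as well. With DESeq2-type size factors and by DESeq2, higher members at 4 h in WT libraries were 3 and 4, and lower members in YTHDF2 over IgG were 3 and 5. With library size alone, 3 and 9 members were higher in the libraries labelled cKO than in WT libraries at 2 and 4 h, and 4 were lower in IgG over input.

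Of 9097 pairs of a named result and an alternative, 8609 kept direction and side of the threshold, 247 lost a call, 230 gained one and 11 turned sign. Under ribosomal protein scaling these were Zfp365 at 4 h over 0 h in the libraries labelled cKO (-0.70) and, in m6A, Zfp277 (0.93), Zfp706 (1.04), Zfp330 (1.11), Zfp598 (1.24), Zfp326 (1.35) and Zfp703 (1.38). In the TPM model of m6A they were Zfp277 (0.02), Zfp706 (0.12), Zfp330 (0.19) and Zfp326 (0.43). Apart from settings that change the samples, members or scale by construction, the cause was not tested.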
